A study of Mus musculus with 4 samples.

Results

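Cytokine and chemokine receptors are mostly surface proteins through which immune signals reach a cell, though a few are secreted. 85 genes so named, followed with 130 probes, were examined in mouse islet cells given the mitochondrial peptide MOTS-c or a scrambled control peptide. A gene was included when its symbol began with the letters of an interleukin receptor, a numbered TNF receptor superfamily member, a CC or CXC chemokine receptor, an interferon alpha or gamma receptor, or a colony stimulating factor receptor. Not every gene that fits this description was analysed here. The whole array named 22916 genes and held 56605 gene probes. The family name was checked against the members, and 1 of the 85, Il1rn, encodes a secreted antagonist that binds the IL-1 receptor and is not itself a receptor. No probe mapped to Il11ra2. The genes were grouped into families by the encoded protein or its receptor complex. Il2ra and Il15ra were thus counted with the type I cytokine receptors.

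Both groups consisted of pancreatic islet cells of C57BL/6 mice, labeled male and 60 weeks old, that were dispersed to single cells and kept in serum-containing medium. 2 samples received the scrambled peptide (replicates 1 and 2) and 2 received MOTS-c (replicates 2 and 3), each at 10 μM for 24 h ex vivo. The 4 animals were littermates, and the labels name no genetic change in either group. Isolated islets lack the blood supply and circulating leukocytes of the animal, and only the immune cells that stay in the tissue can be carried over. The comparison asks which transcripts differ between islet cells of aged mice with and without the peptide.

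These receptors fall into a few structural classes that work in different ways. Type I and type II cytokine receptors pair into complexes that activate JAK kinases and STAT transcription factors. Receptors of the IL-1 and IL-17 families and most TNF receptors recruit adaptor proteins that lead to NF-kappaB and MAP kinases, whereas some TNF receptors carry a death domain. Chemokine receptors are G protein-coupled and direct cell movement. Beta cells are known to respond to IL-1beta, TNF and interferon gamma, which together impair insulin secretion and can kill the cells, while most chemokine receptors are expressed mainly on leukocytes.

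Values are log2 intensities of 1-color Agilent arrays after quantile normalization, 1 array per sample, and a gene was followed through its brightest probe. A probe counted as detected when the scanner software put it well above background on 2 or more arrays. Brightness depends on the probe as well as on the transcript, so intensities were not compared between genes. Between 61.6% and 65.0% of gene spots were well above background on an array, and 0 gene spots were saturated. The beta cell markers Ins1, Ins2, Iapp, Mafa, Nkx6-1 and G6pc2 were detected on all 4 arrays, whereas Ucn3 was detected on 0. Of 28 readings of Y-linked probes 0 were above background, and Xist was detected on all 4 arrays, against the label male. All samples lay on 1 slide, and 2 arrays against 2 allow no two-sided exact permutation p below 0.333. Since the replicates are separate samples of littermates, the tests measure the spread between these 4 samples.

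48 of the 85 receptor genes (56.5%) were detected, against 67.5% of all named genes on the array. 44 of them were above background on all 4 arrays. Of the 37 genes not tested, 33 were above background on 0 arrays and 4 on a single array, namely Cxcr3, Cxcr6, Il1rapl2 and Il1rn. Detection differed between families. It covered 4 of 5 IL-17 receptor genes, 8 of 10 interferon and IL-10 family genes, 15 of 19 TNF receptor genes and the CSF1 receptor. Of the type I cytokine receptor genes 14 of 23 were detected, of the IL-1 and IL-18 family 4 of 10, and of the chemokine receptors 2 of 17. Genes absent from the detected set included the IL-2 receptor chains Il2ra and Il2rb, the IL-7 receptor Il7r, the IL-33 receptor Il1rl1, the decoy receptor for RANKL Tnfrsf11b, and Ccr1, Ccr2, Ccr7, Cxcr1, Cxcr2 and Cxcr5.

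**Figure D1:**
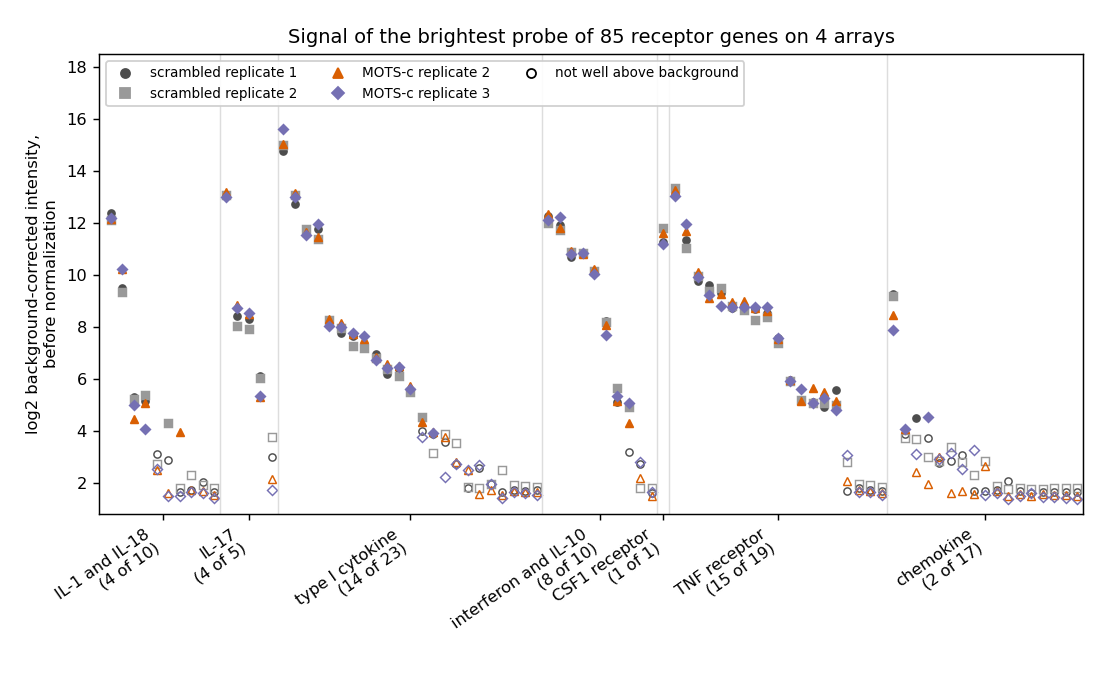
Each column is 1 of 85 receptor genes, grouped by family and ordered by brightness within it, and the y axis is the log2 background-corrected intensity of its brightest probe before normalization. Each of the 4 arrays has its own symbol, filled where the probe was well above background, and the numbers under each family give detected of all genes. Only 2 of 17 chemokine receptor genes met the detection rule, against 15 of 19 TNF receptor genes.

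Across the 48 detected receptor genes, 0 passed an adjusted p of 0.05 in limma, and over all 35087 probes tested the share was 0%, with 0.474 the smallest adjusted p. At an unadjusted p under 0.05 there were 7 of 48 genes (14.6%), against 7.85% of all probes and 8.61% of named genes. 5 of 48 (10.4%) also differed by at least 1.5-fold, where the background was 3.53% of probes and 4% of genes. 2 were higher with MOTS-c (4.17%, against 1.1% of probes), Il1rap and Tnfrsf23. 3 were lower (6.25%, against 2.43% of probes), Cxcr4, Il17re and Il18rap. The count rests on a few genes. It was 3 after the normexp background correction, 3 with the mean over the probes of a gene, and 8 without MOTS-c replicate 2. The methods' t-test gave 0 genes after adjustment and 2 at the same unadjusted p and fold.

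The arrays of the 2 treatments did not overlap for 19 of 48 receptor genes (39.6%), 10 higher and 9 lower with MOTS-c. The 10 include Ccr8, which passed the filter only through the MOTS-c arrays. Some genes were separated by next to nothing, with log2 gaps of 5.4e-05 for Csf3r, 0.0035 for Tnfrsf12a and 0.0077 for Il4ra. The background was 38% of probes, 19.4% higher and 18.6% lower, and 42.5% of named genes, so the share without overlap lay near it. The median log2 fold change over the receptor genes was 0.05, against 0.00 over named genes. It includes Ccr8 and Il12rb2, which passed the filter only through the MOTS-c arrays, and was 0.02 over the 44 genes above background on all 4. The median absolute change was 0.18 against 0.14 over named genes, and the median standard error was also larger, at 0.16 against 0.14. 26 of the 48 differed by less than 0.2 on the log2 scale in either direction. The full range ran from -1.15 for Cxcr4 to 0.73 for Il1rap. Taken 2 arrays at a time, 4 receptor genes reached 1.5-fold within the scrambled group and 5 within the MOTS-c group. Across treatments this number was 6 and 7 for MOTS-c replicate 2 and 9 and 10 for MOTS-c replicate 3. Over all 35087 probes tested the corresponding numbers were 2242 within scrambled, 3959 within MOTS-c, 2759 and 2386 across for MOTS-c replicate 2, and 3769 and 5728 across for replicate 3, so the MOTS-c pair differed in more probes than 3 of the 4 pairs across treatments.

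**Figure D2:**
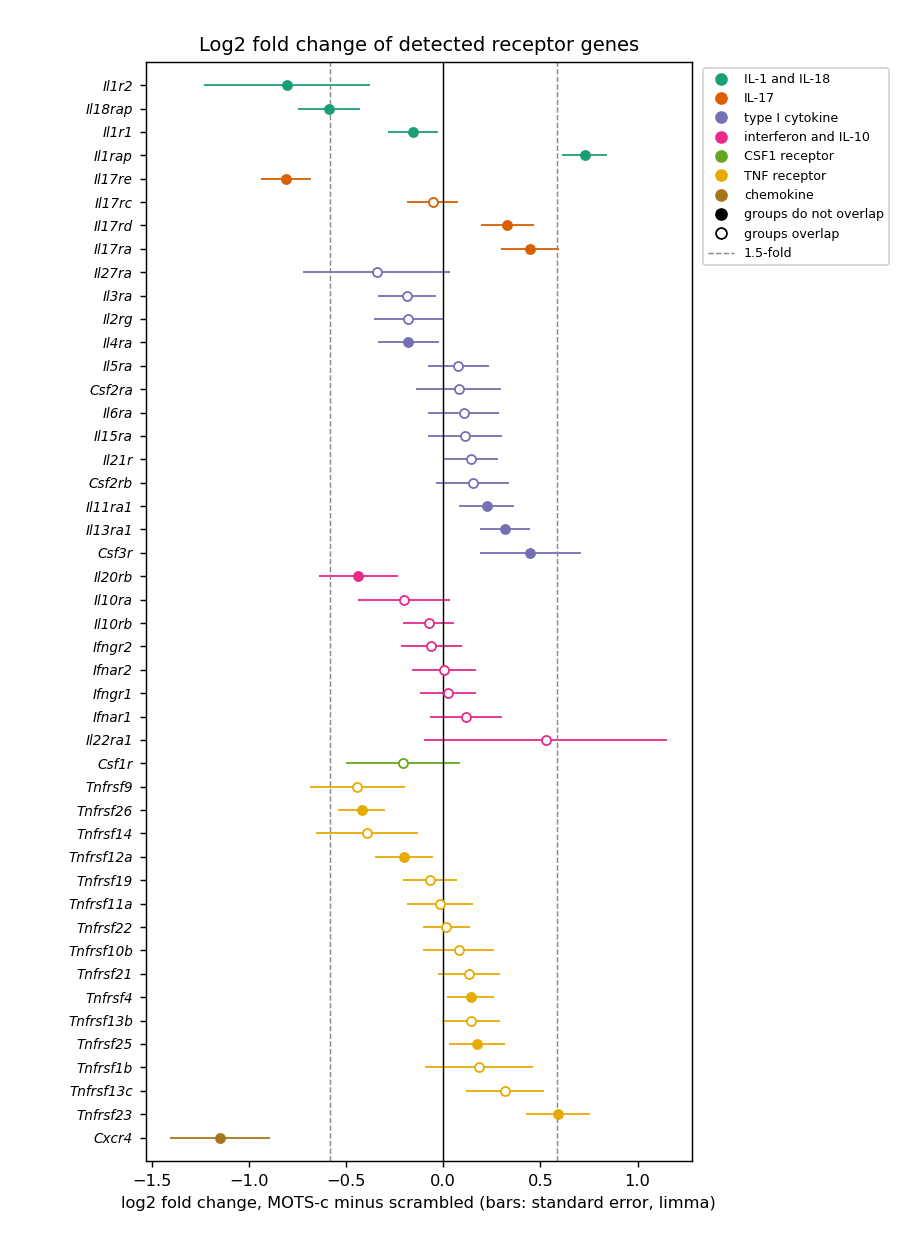
The log2 fold change (MOTS-c minus scrambled, x axis) of the detected receptor genes is drawn by family, without Ccr8 and Il12rb2, for which no fold is given, with bars for the limma standard error and filled points where the 2 arrays of each treatment did not overlap. Dashed lines mark 1.5-fold. Most genes sit close to 0, Cxcr4 lies farthest to the left at -1.15 and Il1rap farthest to the right at 0.73.

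Among the chemokine receptors, Cxcr4 was the only gene above background on all 4 arrays. CXCR4 is the receptor for CXCL12 and guides hematopoietic, immune and endocrine progenitor cells. Its probe read 9.23 and 9.31 with scrambled and 8.47 and 7.78 on MOTS-c replicates 2 and 3. Both MOTS-c values lay below both scrambled values, and the MOTS-c arrays differed from each other by more than the scrambled arrays did. The difference was -1.15 ± 0.26 (log2 fold change ± SE, n = 2 per group, limma adjusted p = 0.51), or 2.22-fold lower with MOTS-c. A second probe of Cxcr4 read 6.02 and 5.97 with scrambled and 5.22 and 4.33 with MOTS-c, a log2 difference of -1.23 ± 0.32. The difference of the brighter probe was -0.80 without MOTS-c replicate 3 and -1.49 without MOTS-c replicate 2. The ligand Cxcl12 read 7.06 and 7.32 with scrambled and 7.40 and 6.62 with MOTS-c, so that its groups overlapped. Ackr3, a scavenging receptor for the same ligand, read 6.17 and 6.55 with scrambled and 5.98 and 5.34 with MOTS-c, and its log2 difference was -0.70 ± 0.27 (adjusted p = 0.65) and -0.37 without MOTS-c replicate 3.

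Ccr8, the other chemokine receptor that was tested, was not well above background on either scrambled array. Its values of 3.87 and 3.86 with scrambled and 4.12 and 3.91 with MOTS-c lay around the dimmest detectable signal, so no fold is given. Cxcr3, a receptor for interferon-induced chemokines, was above background on scrambled replicate 1 alone, with log2 intensities before normalization of 4.50 and 3.68 for scrambled and 2.42 and 3.11 for MOTS-c. Cxcr6 was above background on MOTS-c replicate 3 alone. The other 13 chemokine receptor genes were above background on 0 arrays.

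In bulk RNA, fewer cells of a type and less RNA per cell cannot be told apart. The macrophage markers Cd68, Itgam, C1qa and C1qb were detected while Adgre1, Lyz2, Cx3cr1 and Mrc1 were above background on 0 arrays. The intensity summed over the 8 markers, after quantile normalization of all gene probes without a filter, was 8337 to 8625 with scrambled and 6764 to 9808 with MOTS-c. For 5 T cell markers, of which 3 were detected and Cd3g and Cd8a were at 0 arrays, the sum was 1435 to 1736 with scrambled and 1472 to 1527 with MOTS-c. These ranges overlapped, although C1qa by itself differed by -0.67 (adjusted p = 0.55). Sums that did not overlap and were lower with MOTS-c occurred in several other lists, in the direction of Cxcr4 but of unlike size. The 7 mesenchymal markers, 2 detected, had sums of 235 to 258 and 167 to 195, with Pdgfrb, Col1a1, Col3a1, Dcn and Rgs5 above background on 0 arrays. The 6 acinar markers, 2 detected, had sums of 3566 to 3890 and 2029 to 2476, with Prss1, Amy2a5 and Pnlip at 0 arrays. The 2 detected acinar markers opposed each other, 1 higher and 1 lower with MOTS-c, both without overlap. The 3 Schwann cell markers, 1 detected, had sums of 230 to 246 and 156 to 204, and the detected marker differed by -0.54. The 8 beta cell markers, 7 detected, had sums of 862477 to 887644 and 856292 to 858184. Without overlap, 3 of the 7 were higher and 3 lower with MOTS-c, and their median log2 fold change was -0.04. Among the 7, 1 marker, the glucose transporter Slc2a2, met the unadjusted p and fold at -1.33. The 4 B cell markers, 0 detected, had background-level sums of 29.1 to 35.3 and 22.7 to 22.7. Of 5 alpha cell markers 3 were detected, and 1 of them, Irx2, met the unadjusted p and fold at 0.68 while the sums of the list overlapped. Of the other immune, vessel and duct lists, 0 of 2 NK cell and 0 of 2 neutrophil markers on the array were tested, and 2 of 6 endothelial and 2 of 5 ductal markers were tested with 0 of them separating the treatments. The part of these cells in the receptor values was not tested.

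The IL-1 family held the highest log2 fold change of the receptors, that of Il1rap, and 3 genes lower on both MOTS-c arrays. Il1rap encodes the accessory chain that IL-1, IL-33 and IL-36 receptors all need in order to signal. Its probe read 9.46 and 9.46 with scrambled and 10.19 and 10.19 with MOTS-c. Within each treatment the arrays differed by less than 0.01, and the treatments were separated by 0.72. The log2 fold change was 0.73 ± 0.12 (limma adjusted p = 0.47), or 1.66-fold higher with MOTS-c, and it was 0.73 whichever array was left out. A second probe of Il1rap, for another transcript accession, read 6.71 and 6.50 with scrambled and 7.09 and 6.84 with MOTS-c. The groups again did not overlap, with a smaller log2 difference of 0.36 ± 0.16 (adjusted p = 0.69). The remaining Il1rap probe was above background on 0 arrays.

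The signaling IL-1 receptor Il1r1, through which IL-1beta acts on beta cells, read 12.36 and 12.21 with scrambled and 12.10 and 12.15 with MOTS-c, a difference of -0.15 ± 0.13. Il1r2, a decoy receptor that binds IL-1 without signaling, read 5.16 and 5.46 with scrambled and 5.11 and 3.90 with MOTS-c. MOTS-c replicate 3 alone was low, and the log2 difference was -0.80 ± 0.43 with it and -0.20 without it. Il18rap, the accessory chain of the IL-18 receptor, read 5.26 and 5.29 with scrambled and 4.53 and 4.85 with MOTS-c, so both MOTS-c arrays were lower. The difference was -0.59 ± 0.16 (adjusted p = 0.54), or 1.5-fold, and it was -0.16 after the normexp correction. Its partner chain Il18r1 was above background on 0 arrays. Il1r2, Il1r1 and Il18rap lie in 1 run of 6 neighboring receptor genes on chromosome 1 of GRCm38.p6, and the 3 others of that run, Il1rl2, Il1rl1 and Il18r1, were not detected. Of the ligands, Il1b read 10.16 and 10.27 with scrambled and 9.87 and 9.56 with MOTS-c, a difference of -0.49 ± 0.16 (adjusted p = 0.57).

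The IL-17 receptor genes differed from each other in direction. Il17re encodes a chain that pairs with IL-17RA to bind IL-17C. Its probe read 6.05 and 6.12 with scrambled and 5.34 and 5.21 with MOTS-c. All MOTS-c values were lower, by -0.81 ± 0.13 (log2 fold change ± SE, adjusted p = 0.47), or 1.75-fold, and leaving out any array kept the difference between -0.88 and -0.74. A second probe of Il17re, made for another accession, read 5.59 and 5.79 against 5.19 and 5.18, again without overlap, with a difference of -0.51 ± 0.13. The normexp correction, which adds an offset and compresses dim probes, gave -0.39 for the brighter probe.

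Il17ra, the shared chain of the family, was higher with MOTS-c, at 8.82 and 8.61 against 8.37 and 8.17 with scrambled, by 0.44 ± 0.15 (adjusted p = 0.59). Il17rd, a receptor also known as an inhibitor of FGF signaling, read 8.24 and 8.03 with scrambled and 8.48 and 8.45 with MOTS-c, by 0.33 ± 0.14 (adjusted p = 0.68), while its dimmer probe read -0.06 ± 0.36. Il17rc, which pairs with IL-17RA for IL-17A and IL-17F and lies next to Il17re on chromosome 6, read 13.05 and 13.16 with scrambled and 13.13 and 12.97 with MOTS-c. Its difference of -0.05 ± 0.13 left the groups overlapping. Il17rb was above background on 0 arrays. Traf3ip2, the adaptor that binds these receptors inside the cell, read 11.41 and 11.66 with scrambled and 11.01 and 10.66 with MOTS-c. It was 1 of 2 genes on the list of adaptors that differed at an unadjusted p under 0.05 and 1.5-fold (-0.70 ± 0.19, adjusted p = 0.53).

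**Figure D3:**
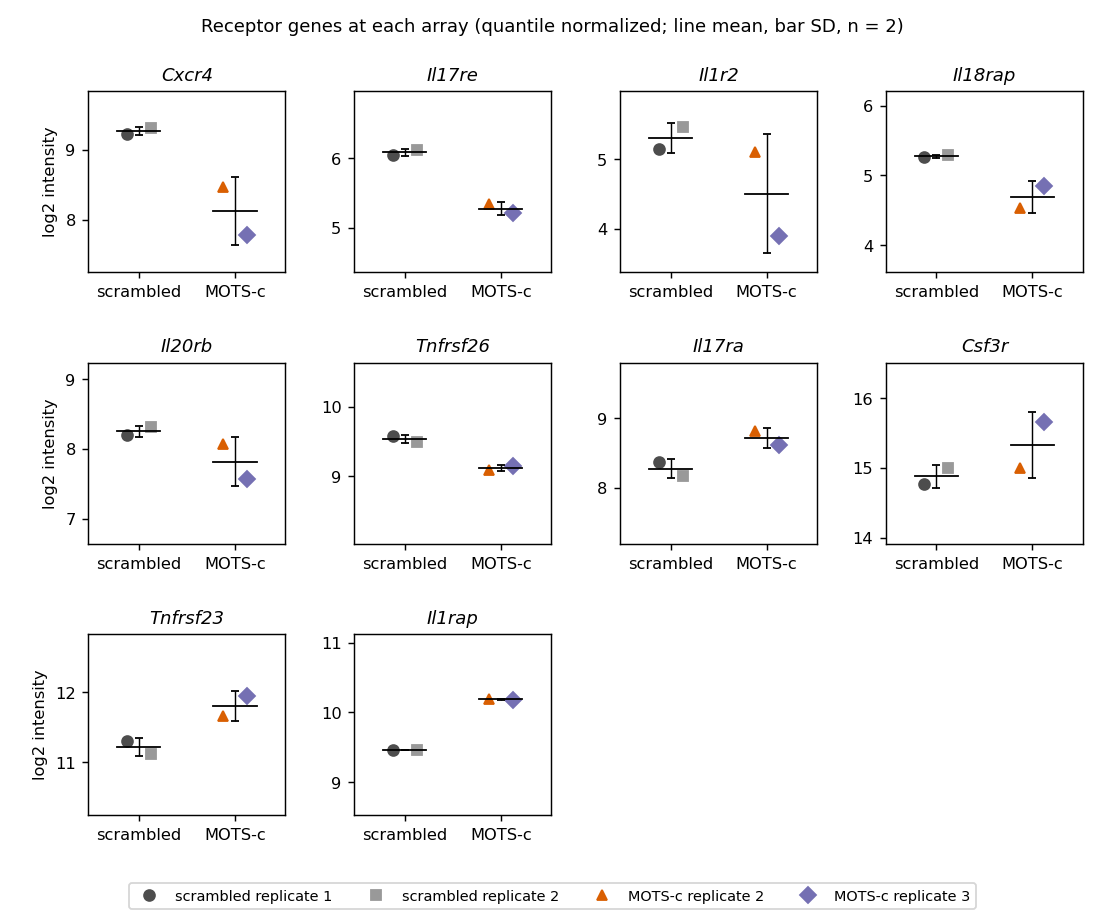
Log2 intensity (y axis, quantile normalized, every panel spanning the same number of log2 units) of 10 receptor genes is shown on each of 4 arrays, ordered from the lowest to the highest log2 fold change, with group mean and SD. Il1rap arrays of a treatment lie almost on each other, and those of Il17re and Tnfrsf26 lie close. MOTS-c replicate 3 sets most of the difference of Il1r2, Csf3r and Il20rb.

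Promoter sequence is shown for Cxcr4, Il17re and Il1rap, the receptor genes for which a further probe separated the treatments in the same direction as a brightest probe that met the unadjusted p and fold. RefSeq gives them on GRCm38.p6, 250 bases before to 50 after the transcription start, as chr1:128592250-128592549 on the minus strand for Cxcr4, chr6:113458521-113458820 on the plus strand for Il17re and chr16:26581455-26581754 on the plus strand for Il1rap. They are written 5′ to 3′ along the gene, and capitals mark the 1 match to a searched motif.
Cxcr4: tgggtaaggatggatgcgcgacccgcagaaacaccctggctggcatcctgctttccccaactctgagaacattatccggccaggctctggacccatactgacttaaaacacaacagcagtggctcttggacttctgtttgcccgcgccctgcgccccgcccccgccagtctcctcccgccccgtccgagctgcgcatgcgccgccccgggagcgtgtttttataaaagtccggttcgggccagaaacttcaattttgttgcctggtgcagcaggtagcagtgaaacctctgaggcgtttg
Il17re: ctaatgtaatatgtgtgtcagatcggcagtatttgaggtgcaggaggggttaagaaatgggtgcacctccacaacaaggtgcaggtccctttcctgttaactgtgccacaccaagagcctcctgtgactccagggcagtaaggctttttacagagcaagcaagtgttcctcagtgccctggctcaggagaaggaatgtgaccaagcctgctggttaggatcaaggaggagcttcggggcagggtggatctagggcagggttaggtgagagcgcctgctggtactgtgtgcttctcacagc
Il1rap: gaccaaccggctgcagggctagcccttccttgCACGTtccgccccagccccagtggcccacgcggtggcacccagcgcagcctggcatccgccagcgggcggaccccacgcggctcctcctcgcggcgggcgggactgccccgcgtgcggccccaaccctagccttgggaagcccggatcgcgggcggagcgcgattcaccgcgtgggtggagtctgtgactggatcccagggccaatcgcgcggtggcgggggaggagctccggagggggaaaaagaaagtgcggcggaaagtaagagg

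The promoters differ in base composition, with 72% G and C and 33 CpG pairs in Il1rap, 59.3% and 20 in Cxcr4 and 53.7% and 3 in Il17re. Both strands were searched for the NF-kappaB consensus and for the STAT site known as GAS (TTCNNNGAA). They were also searched for ACGTG, a form of the core of hypoxia response elements, but not for the form GCGTG. Matches to the NF-kappaB and GAS motifs can share bases. ACGTG occurred once, in Il1rap, on the opposite strand from position -218 relative to the start, and the other searched motifs matched in none of the 3 windows. Over the receptor genes with a promoter in the table, 13 of 68 (19.1%) held the NF-kappaB consensus, 15 (22.1%) a GAS site and 14 (20.6%) ACGTG. Among all 32851 promoters of this length the shares were 8.46%, 8.3% and 19.6%, and per gene, over any of its promoters, 9.55%, 9.55% and 21.8%.

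Within the TNF receptor superfamily, 15 genes were tested, and 1 differed at an unadjusted p under 0.05 and 1.5-fold. Tnfrsf23 encodes a TRAIL-binding decoy receptor of the mouse that lacks a death domain. Its brightest probe read 11.31 and 11.12 with scrambled and 11.66 and 11.95 with MOTS-c, a log2 fold change of 0.59 ± 0.16 (limma adjusted p = 0.54), or 1.5-fold higher. Both further probes of the gene overlapped between treatments. One of them read 7.74 and 7.89 with scrambled and 8.03 and 7.69 with MOTS-c, and their log2 differences were 0.05 ± 0.17 and 0.08 ± 0.22. The mean over its 3 probes gave 0.24.

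Tnfrsf23 lies on chromosome 7 of GRCm38.p6 beside 2 close relatives, Tnfrsf22 and Tnfrsf26. Tnfrsf22, another TRAIL decoy receptor, read 7.51 and 7.49 with scrambled and 7.56 and 7.47 with MOTS-c, a log2 difference of 0.02 ± 0.12. Tnfrsf26 read 9.58 and 9.49 with scrambled and 9.09 and 9.15 with MOTS-c, and the groups did not overlap (-0.42 ± 0.12, adjusted p = 0.55). The 3 neighbors thus differed in sign and size. Since their sequences are related, probes may in part share signal. The death-inducing TRAIL receptor Tnfrsf10b read 9.71 and 10.06 with scrambled and 10.09 and 9.84 with MOTS-c, by 0.08 ± 0.18. Tnfsf10, the ligand TRAIL itself, read 8.19 and 7.80 with scrambled and 7.25 and 7.16 with MOTS-c, by -0.79 ± 0.17 (adjusted p = 0.51).

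Tnfrsf14 encodes HVEM, a receptor for LIGHT and BTLA. Its probes opposed each other. The brighter one read 5.54 and 5.07 with scrambled and 5.19 and 4.65 with MOTS-c, a log2 difference of -0.39 ± 0.26 with overlap. The other, made for the same transcript accession, read 4.82 and 4.65 with scrambled and 5.57 and 5.36 with MOTS-c, without overlap, and its difference was 0.73 ± 0.15 (adjusted p = 0.49). No direction can be given for this gene. Tnfrsf11a, the receptor RANK, had probes at -0.02 ± 0.17 and 0.26 ± 0.23, both with overlap.

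Tnfrsf9, the costimulatory receptor 4-1BB, read 9.25 and 9.60 with scrambled and 9.26 and 8.71 with MOTS-c, by -0.44 ± 0.24 with overlap. Tnfrsf12a, the receptor for TWEAK, read 13.24 and 13.41 with scrambled and 13.24 and 13.01 with MOTS-c, by -0.20 ± 0.15. Tnfrsf21, a death receptor, read 8.65 and 8.76 with scrambled and 8.99 and 8.68 with MOTS-c, by 0.13 ± 0.16. Its second probe read 7.61 and 7.68 with scrambled and 7.85 and 7.81 with MOTS-c, without overlap, by 0.19 ± 0.12. The 15 tested genes ranged from -0.44 to 0.59 in log2 fold change, and 9 of them differed by less than 0.2. Those without detection were Tnfrsf8, Tnfrsf11b, Tnfrsf17 and Tnfrsf18, which encode CD30, osteoprotegerin, BCMA and GITR.

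**Figure D4:**
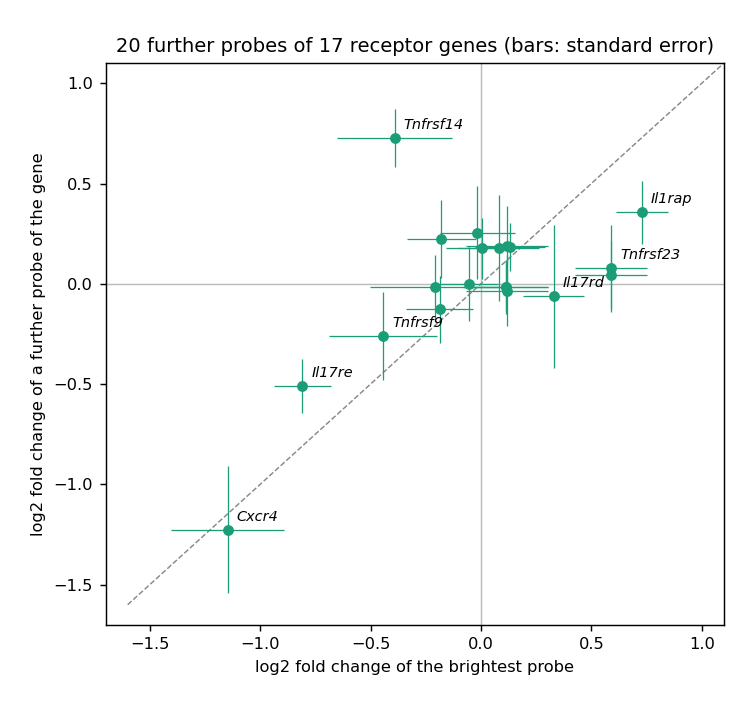
The log2 fold change (MOTS-c minus scrambled) of 20 further detected probes (y axis) is set against that of the brightest probe of the same gene (x axis) for 17 receptor genes, with limma standard errors and a dashed line of equality. Cxcr4, Il17re and Il1rap lie on the same side of 0 on both axes, Tnfrsf14 does not, and the further probes of Tnfrsf23 lie near 0.

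Of the 20 further detected probes of 17 receptor genes, 12 had the sign of the brightest probe and 8 the opposite sign. For the rest of the tested genes no further probe passed the filter, and 46 of all 85 genes had a single probe on the array. Il18rap, Tnfrsf26, Il17ra and Csf3r are therefore each described by 1 probe.

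Among the type I cytokine receptors, 0 of 14 tested genes reached an unadjusted p under 0.05. Csf3r, the G-CSF receptor of neutrophils and their precursors, read 14.76 and 15.00 with scrambled and 15.00 and 15.66 with MOTS-c. MOTS-c replicate 3 alone was high, and the log2 difference of 0.45 ± 0.26 (adjusted p = 0.74) was 0.12 without it. The neutrophil markers S100a8 and S100a9 were above background on 0 arrays, whereas this receptor was detected on all 4. Its reading rests on 1 probe, and which cells or transcripts gave the signal was not tested. Csf2ra, the specific chain of the GM-CSF receptor, read 11.72 and 11.50 with scrambled and 11.43 and 11.94 with MOTS-c, and its partner Csf2rb read 6.14 and 6.47 with scrambled and 6.61 and 6.31 with MOTS-c. Both overlapped.

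Il15ra, which presents IL-15 to neighboring cells, read 12.71 and 13.15 with scrambled and 13.12 and 12.97 with MOTS-c, by 0.11 ± 0.19. Il3ra, the specific chain of the IL-3 receptor, read 11.61 and 11.87 with scrambled and 11.62 and 11.49 with MOTS-c, by -0.19 ± 0.15. The IL-6 receptor Il6ra, known for its place in alpha and beta cell responses to IL-6, read 7.73 and 8.07 with scrambled and 8.14 and 7.87 with MOTS-c. Its difference was 0.10 ± 0.18, and that of Il6st, the shared chain gp130, was -0.11 ± 0.12. The common gamma chain Il2rg read 8.19 and 8.40 with scrambled and 8.30 and 7.94 with MOTS-c, by -0.18 ± 0.18.

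Il4ra, shared by IL-4 and IL-13 signaling, had probes at -0.18 ± 0.16 and 0.22 ± 0.19. Il13ra1, its partner for IL-13, read 7.14 and 7.30 with scrambled and 7.56 and 7.52 with MOTS-c, without overlap and by 0.32 ± 0.13 (adjusted p = 0.66). Il11ra1, which binds IL-11, read 7.59 and 7.37 with scrambled and 7.76 and 7.64 with MOTS-c, also without overlap, by 0.22 ± 0.14. Il12rb2 was not well above background on either scrambled array, and no fold is given for it. The 14 tested genes ranged from -0.34 for Il27ra, which was above background on 2 arrays, to 0.45 for Csf3r.

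By their brightest probes on all 4 arrays, the interferon receptors lay within a narrow band. Ifngr1, the ligand-binding chain for interferon gamma, read 12.25 and 12.09 with scrambled and 12.30 and 12.09 with MOTS-c, by 0.02 ± 0.14. Its partner Ifngr2 read 10.03 and 10.26 with scrambled and 10.20 and 9.96 with MOTS-c, by -0.06 ± 0.16. The chains of the type I interferon receptor, Ifnar1 and Ifnar2, differed by 0.12 ± 0.19 and 0.00 ± 0.16. Further probes differed by -0.03 and 0.19 for Ifnar1 and by 0.18 for Ifnar2. The brightest Ifnar1 probe was at 0.33 without MOTS-c replicate 2 and -0.10 without MOTS-c replicate 3. Il10rb, shared by IL-10, IL-22 and lambda interferons, differed by -0.08 ± 0.13. Ifnar2, Il10rb, Ifnar1 and Ifngr2 are neighbors on chromosome 16 of GRCm38.p6. The log2 differences of their brightest probes all lay between -0.08 and 0.12 with overlapping groups. Il20rb, a chain of the receptors for IL-19, IL-20 and IL-24, read 8.20 and 8.31 with scrambled and 8.07 and 7.57 with MOTS-c. Its log2 difference of -0.44 ± 0.20 was -0.19 without MOTS-c replicate 3. Il22ra1, the specific chain of the IL-22 receptor, was above background on 3 arrays and read 4.36 and 4.92 with MOTS-c. Scrambled replicate 1 alone was below background, at 3.22, while scrambled replicate 2 lay above both MOTS-c arrays. The log2 difference of 0.53 ± 0.62 turned to -0.36 when scrambled replicate 1 was left out and was 1.42 when scrambled replicate 2 was. Csf1r, the growth factor receptor of macrophages, read 11.22 and 11.91 with scrambled and 11.57 and 11.14 with MOTS-c, by -0.21 ± 0.29, and its groups overlapped.

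Lists of genes that work with these receptors were counted in the same way. Of 75 cytokine and chemokine ligand genes on the array 29 were tested, 6 reached an unadjusted p under 0.05, and 2 of them, Ccl5 and Tnfsf10, also met 1.5-fold, against 8.61% and 4% of named genes. The median log2 fold change of this list was -0.01, near the 0.00 of all named genes. Ccl5 passed the filter only through the MOTS-c arrays, so that its fitted values rest on scrambled readings at background. Its MOTS-c mean lay 1.14-fold above the dimmest detectable signal, and its log2 difference after normexp was 0.13, so no firm fold is given. Of 30 receptor chains outside the naming rule 21 were tested, and 1 met both criteria, with a list median of -0.11. This was Ngfr, the low-affinity neurotrophin receptor, at 12.84 and 12.81 with scrambled and 12.42 and 11.84 with MOTS-c (-0.70 ± 0.23, adjusted p = 0.57), and its difference was -0.40 without MOTS-c replicate 3. The list of JAK, STAT and SOCS genes had 0 of 24 tested genes at both criteria and a median log2 fold change of 0.02. Of 35 tested adaptors of TNF and IL-1 receptors and NF-kappaB genes, 0 higher and 2 lower met both, Traf3ip2 and Relb, while the list median was 0.02. Relb, the NF-kappaB subunit of the noncanonical pathway used by several TNF receptors, read 9.95 and 9.89 with scrambled and 9.43 and 9.22 with MOTS-c (-0.60 ± 0.14, adjusted p = 0.51). In each of the 4 lists 0 genes passed an adjusted p of 0.05 in limma.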

How the data were processed

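RNA of 4 samples was hybridized to 1-color Agilent mouse arrays. The authors read the spots with Feature Extraction (version 11.0.1.1, per the file headers) and deposited processed intensity values, which carry a background correction but no scaling across arrays. Their value table, also deposited, repeats these intensities rounded to fewer digits and served as an alternative. Groups and replicate numbers came from the sample labels.

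Control spots and spots marked as outliers were left out, log2 values were averaged per probe, and probes that the software put above background on 2 or more arrays were quantile normalized. This filter stands in for a Flag A that the methods name without defining. limma (version 3.58.1, R 4.3.3) compared MOTS-c with scrambled over 35087 probes with Benjamini-Hochberg adjustment, with 2 residual and 2.64 prior degrees of freedom. The number of arrays limits the precision. Accessions were named through the GRCm38.p6 gene table, which covered 33006 probes by accession or symbol and left 23599 without a name. Coordinates are those of the RefSeq table, since the annotation of the array uses a different build.

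Receptor genes are named in the text if they met the unadjusted p and fold, were among the 10 brightest, differed by 0.4 without overlap, were among the next 3 brightest of a family, or had a probe moving the opposite way by 0.2. Members of the other lists are named where they met the unadjusted p and fold or are defining markers. Il13ra1, Il12rb2, Il22ra1, Il27ra, Csf2rb, Tnfrsf22, Cxcl12, Ackr3, Il1b, Il6st and the undetected genes were named beyond that rule. Some genes under these rules are not named here. The members and lists were chosen with earlier results of these data known.

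Alternatives were a 75th percentile shift, normexp with an offset of 50 on median spot signals, the authors' table, no filter, a filter on all 4 arrays, the mean over probes, a limma intensity trend, the methods' t-test and leaving out each array. Of 200 of 35084 simulated probes changed by a log2 of 1, 0% were called at the adjusted p and 97.5% at the unadjusted p and fold. With a log2 of 2, 94% were called at the adjusted p, with 11 false calls. The simulated noise was independent and scaled to the median variance within groups, with a spread between probes that was not the fitted prior. These shares hold for that setting and may overstate what the 4 arrays can detect. False calls at the unadjusted p and fold were not counted.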

Additional observations from a re-analysis of the deposited data

How the results depend on the processing

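Under every alternative, 0 receptor genes passed an adjusted p of 0.05. The count at an unadjusted p under 0.05 and 1.5-fold, 5 of 48, became 3 after normexp, 10 of 85 without a filter on dim probes, 3 with the mean over probes and 2 by the methods' t-test, and was 4 to 8 when 1 array was left out, with 8 without MOTS-c replicate 2. The count without overlap, 19, was 17 with the authors' table and 23 with the 75th percentile shift. It became 36 of 85 without the filter and 31 to 36 with 1 array left out, where 3 arrays separate more easily. The median log2 fold change, 0.05, ran with 1 array left out from -0.0875 (without scrambled replicate 1) to 0.0815 (without scrambled replicate 2), and was 0.0852 with the mean over probes. With the filter on all 4 arrays it was 0.0205, after normexp -0.000861, and over 85 genes without the filter -0.0249. It was -0.0652 without MOTS-c replicate 2, so its sign is not settled. Detection ran from 44 genes (all 4 arrays) to 52 (at least 1 array), and from 45 to 48 with 1 array left out. For 33 named receptor genes, 295 of 329 values lay within the standard error of the value given, and 27 had the opposite sign, in 15 genes. Where 1 array was left out, the remaining array of that group was assumed to vary like the other group. No paired analysis was possible because the groups share only 1 replicate number, and no block for the slide because there was 1 slide. Dim probes such as Il17re, Il18rap and Il1r2 limit the size of a difference that can be read, and their log2 differences under normexp were -0.39, -0.16 and -0.24.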
